A study of Mus musculus with 10 samples.

Results

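Klf2, Klf4, Klf5, Tbx3, Esrrb, Zfp42, Nr5a2, Prdm14, Tcl1 and Dppa3 are 10 genes of the naive pluripotency network of mouse embryonic stem cells. They were measured here in KH2 cells, an embryonic stem cell line of the mouse in which doxycycline switches on a transgene, in this case Sox17 with a V5 tag. The members were taken by gene symbol in the probe annotation, with every probe of each symbol. This gave 17 probes for 10 genes, of 25697 probes for 16593 genes on the array. All 17 lay above the background limit (an intensity of 10.6) on at least 5 of the 10 arrays and were tested, as were 14985 probes for 10087 genes in all.

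RNA of the cells was read on Illumina bead arrays, 10 in all, of which 5 carry the label uninduced and 5 the label induced, with 48 h of doxycycline. Both labels share the cell line and the Sox17-V5 transgene, and the treatment field names doxycycline for all 10 samples, so the label rests on the titles and on the characteristic that sets controls apart. Only 1 line is named, and nothing in the labels ties a replicate to a culture of its own. Each p-value therefore reflects variation among these samples that may be technical. Below, an array goes by its label and the number in its title (uninduced 1, induced 5), and the replicate numbers in the descriptions restart at titles 4 and 5 of each label, so titles 1 to 3 are called run 1 and titles 4 and 5 run 2. These are names for the numbering only, since no label or header gives a batch.

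The naive state is the ground state of mouse embryonic stem cells, resembling the epiblast before implantation. It is maintained by LIF, which signals through JAK kinases to Stat3, and by a network of transcription factors that partly replace each other. Klf4 is a known target of Stat3, Tbx3 is linked to PI3 kinase signalling, and Klf2 protein is known to be stabilised when MEK signalling is blocked. When cells move towards the primed state many of these genes are shut off, Zfp42 (Rex1) among the markers used to follow that exit.

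Sox17 went against the labels. Its tested probe read 32.6, 32.1, 30.5, 60.6 and 65.3 on uninduced 1 to 5, and 67.3, 13.6, 11.99, 16.6 and 15.0 on induced 1 to 5. The highest array thus carried the label induced 1, and induced 2 to 5 lay below every array labelled uninduced. The label difference of Sox17 was -0.66 ± 0.29 (limma, adjusted p = 0.120), and the sources used here do not give whether its probes lie in the stretch that the transgene carries. The label is therefore written as "labelled" throughout, and no direction below is read as an effect of Sox17. The first principal component of all tested probes (56.7% of the variance) put induced 2 to 5 at 26.83 to 36.49 and the other 6 arrays at -24.13 to -18.37. The second (20.4%) put uninduced 1 to 3 with induced 2 and 3 (14.83 to 17.61) apart from uninduced 4 and 5 with induced 1, 4 and 5 (-17.5 to -13.25), so on it induced 1, a title of run 1, lay with run 2. The cells carried the defining genes of embryonic stem cells: Pou5f1 read 6476 to 9471, Nanog 4736 to 6386 and Sox2 1162 to 1688 over the 10 arrays.

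Promoters were given for 6 of the 10 members, as 8 windows of 250 bases before to 50 after a transcription start, from RefSeq on GRCm38.p6. There was no entry for Klf5, Tbx3, Prdm14 and Dppa3. The windows of Klf2 and Klf4 are shown because both genes were lower on the arrays labelled induced, and that of Zfp42 because its level did not pass the test in any comparison of labels or runs. They are chr8:72318812-72319111 on the plus strand for Klf2, chr4:55532426-55532725 on the minus strand for Klf4 and chr8:43306960-43307259 on the minus strand for Zfp42. Each is written 5′ to 3′ along its gene, with matches on either strand to GGGCGG (a GC box), ATGCAAAT (the octamer that Oct factors bind) and CCAAT in capitals.
Klf2: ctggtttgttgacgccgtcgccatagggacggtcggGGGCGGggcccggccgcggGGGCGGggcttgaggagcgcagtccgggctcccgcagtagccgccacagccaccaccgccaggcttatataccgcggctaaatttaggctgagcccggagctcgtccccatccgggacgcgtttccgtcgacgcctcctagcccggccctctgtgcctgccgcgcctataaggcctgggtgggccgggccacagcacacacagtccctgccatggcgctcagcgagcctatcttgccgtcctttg
Klf4: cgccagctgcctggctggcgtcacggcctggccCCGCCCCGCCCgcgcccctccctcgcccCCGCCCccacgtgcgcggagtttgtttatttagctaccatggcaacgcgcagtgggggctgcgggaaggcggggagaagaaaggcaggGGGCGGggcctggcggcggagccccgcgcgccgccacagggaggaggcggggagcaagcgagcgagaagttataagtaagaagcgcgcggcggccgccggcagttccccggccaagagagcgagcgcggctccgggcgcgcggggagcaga
Zfp42: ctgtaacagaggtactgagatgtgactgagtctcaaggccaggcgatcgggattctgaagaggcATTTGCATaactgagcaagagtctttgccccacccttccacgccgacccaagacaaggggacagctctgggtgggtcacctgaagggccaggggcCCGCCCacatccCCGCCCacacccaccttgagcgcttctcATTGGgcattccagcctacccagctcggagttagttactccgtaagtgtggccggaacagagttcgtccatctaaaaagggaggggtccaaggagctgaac
Klf2 held 2 GC boxes in a window of 69.3% G and C, and Klf4 held 4, a pair of them overlapping, in 74.3%. Zfp42 held the octamer once, on the strand opposite to its gene, with 1 CCAAT and 2 GC boxes in 57.7%. Of 32851 promoter windows of the same length, 35.7% held a GC box, 1.74% the octamer and 37.4% CCAAT on either strand. Of the other motifs searched on both strands, TTCNNNGAA (the Stat half-site pair) occurred once, in 1 of the 2 Esrrb windows, beside 8.3% of all windows. ATTGT, the core that Sox factors bind, occurred 2 times in that Esrrb window and in none of the other 7 of members, beside 31% of all windows. AAGGTCA, the Esrrb site, occurred in none of the 8 (4.72% of all windows), and TATAAA in 1 of the Nr5a2 windows (13.6%). A match is a description of letters only.

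Between the labels, 3 of the 10 genes fell on the arrays labelled induced and 0 rose, judged on the most intense probe of each. They were Klf4, Klf2 and Tbx3, all transcription factors that sustain self-renewal. Of the 17 probes, 7 were lower and 0 higher at limma's adjusted p under 0.05, beside 10.4% lower and 9.06% higher among all 14985. The lower share was larger than that background, with the 7 probes reading 4 genes, 3 of them Klf4. The median difference of the 10 genes was -0.11 on the scale of log2(intensity + 16), and that of all tested genes -0.01. The fall of each of the 3 genes lay in induced 2 to 5, as the values below show, and induced 1 read near the arrays labelled uninduced. In bulk RNA, fewer cells of a type and less RNA per cell cannot be told apart.

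Klf4, a zinc finger factor and one of the reprogramming factors, is read by 3 probes. The most intense, ILMN_2999439, read 2105, 2250.4, 2534, 2135 and 2145 on uninduced 1 to 5. On induced 1 to 5 it read 2021, 1274, 1124, 975 and 1279. Induced 1 lay a little below the lowest value of the label uninduced and the other 4 far lower, so the labels did not overlap. The mean was 2234 ± 177 (SD, n = 5) against 1334 ± 404 (SD, n = 5), a difference of -0.78 ± 0.16 (SE, limma, adjusted p = 0.0209). An exact two-sided permutation of the arrays gave p = 0.00794, the smallest that 252 arrangements allow. Probe ILMN_1241903 read 1106, 1130, 1021, 933 and 1001 against 912, 648, 819, 567 and 745, again without overlap, and differed by -0.50 ± 0.12 (adjusted p = 0.0258). The third, ILMN_1221264, read 458 to 579.6 on the arrays labelled uninduced and 286 to 466 on those labelled induced, which overlap. It differed by -0.41 ± 0.12 (adjusted p = 0.0400), so all 3 Klf4 probes were called in the same direction.

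Klf2, a relative of Klf4 with shared targets in these cells, has 1 probe. It read 3799, 3891, 3733, 3831 and 3978 on uninduced 1 to 5. On induced 1 to 5 it read 3687, 2415, 2568, 2483 and 2824. Here too induced 1 stood just below the arrays labelled uninduced, and the other 4 were apart from both. The mean was 3846 ± 93.2 against 2795 ± 522 (SD, n = 5 each), and the difference -0.48 ± 0.11 (limma, adjusted p = 0.0234, exact permutation p = 0.00794).

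Klf5, the third Krüppel-like factor of the network, did not pass the test. Its probe read 4995, 4804, 4395, 5349 and 5403 on uninduced 1 to 5 and 5068, 4911, 5662, 5644 and 5136 on induced 1 to 5. The labels overlapped widely, and the difference was 0.08 ± 0.09 (limma, adjusted p = 0.478).

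Tbx3, a T-box factor, has 3 probes. ILMN_1247220, the most intense, read 1108, 1096, 1021, 1153 and 1214 on uninduced 1 to 5. The arrays labelled induced gave 1246 on induced 1, the highest of all 10, and 609, 685, 654 and 690.3 on induced 2 to 5. The labels therefore overlapped through induced 1 alone, and the 4 others were lower than every other array. The mean was 1118 ± 71.5 against 777 ± 265 (SD, n = 5 each), a difference of -0.57 ± 0.17 (limma, adjusted p = 0.0395, exact permutation p = 0.0476). Probe ILMN_3139514 read 699 to 931 on the arrays labelled uninduced, 821 on induced 1 and 425 to 529 on induced 2 to 5, and differed by -0.61 ± 0.17 (adjusted p = 0.0338). ILMN_3061990 ran from 109 to 219 and from 90.5 to 174 on the arrays of each label. Its difference of -0.30 ± 0.20 did not pass (adjusted p = 0.276).

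**Figure D1:**
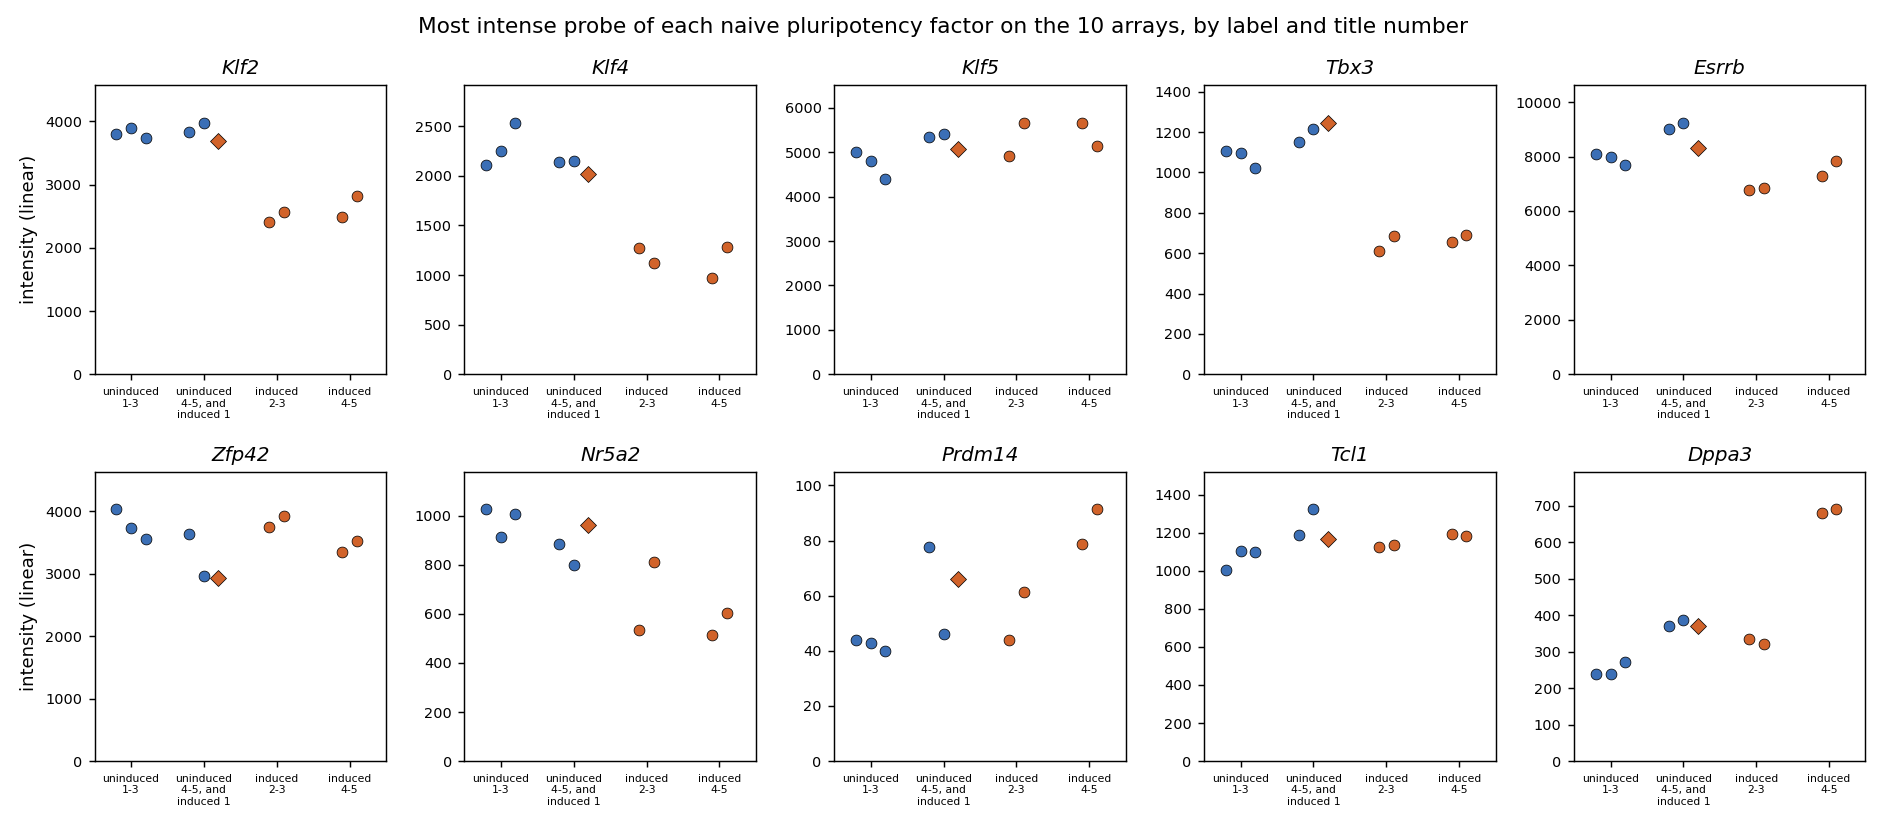
Intensity (linear scale, from 0) of the most intense probe of each of the 10 genes; each point is 1 array, blue for the label uninduced and orange for the label induced, with induced 1 drawn as a diamond beside uninduced 4 and 5. Klf2, Klf4 and Tbx3 are low on induced 2 to 5 and not on induced 1, and Dppa3 is highest on induced 4 and 5, at 681 and 689.

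The nuclear receptors Esrrb and Nr5a2 (Lrh-1) both support Oct4 expression. Esrrb read 8110.2, 7988, 7706, 8999 and 9242 on uninduced 1 to 5 and 8325, 6753, 6826, 7267 and 7834 on induced 1 to 5. Only induced 1 and induced 5 lay within the range of the arrays labelled uninduced, and the difference of -0.18 ± 0.09 did not pass (limma, adjusted p = 0.148, exact permutation p = 0.0635). Probe ILMN_2634389 of Nr5a2 read 1025, 915, 1009, 883 and 799 against 963, 532, 813, 514 and 602, with induced 1 and induced 3 inside the range of the other label. Its difference was -0.46 ± 0.17 and did not pass (adjusted p = 0.0666), but it passed with the run as a block (adjusted p = 0.0369).

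The other two probes of Nr5a2 parted. ILMN_2813203 read 299.5, 306, 338, 235 and 261 on uninduced 1 to 5 and 243, 171, 206, 193 and 180.3 on induced 1 to 5. Only induced 1 overlapped with the other label, and the probe was called lower (-0.50 ± 0.12, limma, adjusted p = 0.0234). ILMN_2751680 was close to background, at 9.46 to 26.1 on the arrays labelled uninduced and 9.49 to 25.3 on those labelled induced, with 7 of 10 arrays above the limit. Arrays of both labels lay under that limit, so no fold is given for it (adjusted p = 0.419).

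Zfp42, the zinc finger marker of the naive state, read 4030.0, 3729, 3559, 3635 and 2971 on uninduced 1 to 5. On induced 1 to 5 it read 2927, 3744, 3929.9, 3354 and 3531. Its lowest arrays were induced 1 and uninduced 5, and the labels overlapped over most of their range. The difference was -0.04 ± 0.11 (limma, adjusted p = 0.821).

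Prdm14, a repressor of FGF signalling and DNA methylation genes, has a single probe. It read 44.1, 42.8, 39.9, 77.6 and 46.0 on uninduced 1 to 5 and 66.1, 44.1, 61.4, 78.9 and 91.3 on induced 1 to 5. Uninduced 4 stood with the higher arrays labelled induced, and the difference of 0.35 ± 0.17 did not pass (limma, adjusted p = 0.153). Tcl1, a coactivator of the kinase Akt, read 1002 to 1322 on the arrays labelled uninduced and 1127 to 1193 on those labelled induced with probe ILMN_2985612, a difference of 0.03 ± 0.08 (adjusted p = 0.825). Its other probe, ILMN_2638171, read 349, 334, 317, 418 and 411 against 337, 417, 416, 509 and 583. Induced 4 and 5 were above all arrays labelled uninduced there, but the difference of 0.28 ± 0.14 did not pass (adjusted p = 0.160). The probes of Tcl1 thus did not give the same picture, and the sources used here do not give which transcripts each one reads.

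**Figure D2:**
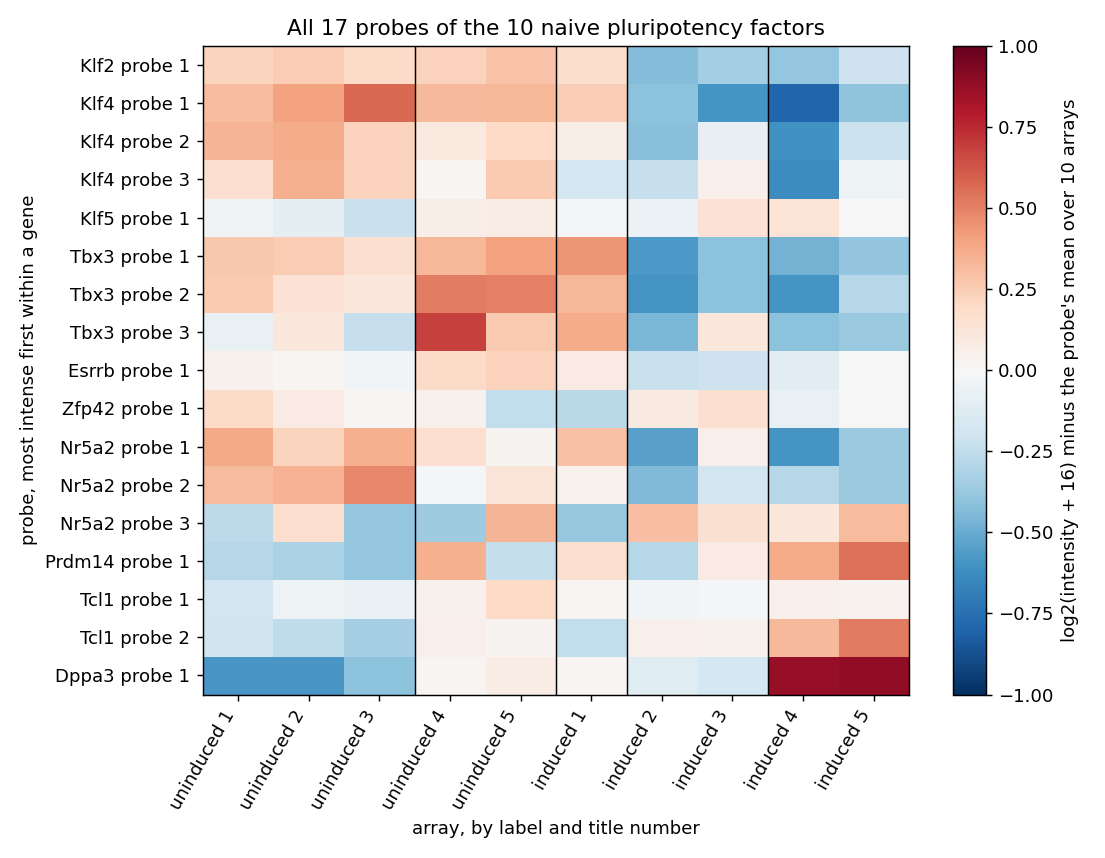
Each of the 17 probes (rows, most intense first within a gene) on the 10 arrays (columns), coloured by log2(intensity + 16) minus the mean of that probe over the arrays. The probes of Klf2, Klf4 and Tbx3 are mostly blue (lower) on induced 2 to 5, and Dppa3 goes from blue on uninduced 1 to 3 to deep red on induced 4 and 5.

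Dppa3 (Stella, PGC7), a protein of naive cells and germ cells that protects DNA methylation in the early embryo, followed another order. It read 238, 239, 271, 369.96 and 385 on uninduced 1 to 5 and 369.5, 335, 322, 681 and 689 on induced 1 to 5. Uninduced 1 to 3 were the lowest, induced 4 and 5 the highest, and the other 5 arrays lay between, with induced 1 beside uninduced 4 and 5. Between the labels the mean was 301 ± 71.7 against 479 ± 189 (SD, n = 5 each), and the difference of 0.59 ± 0.24 did not pass (limma, adjusted p = 0.0938, exact permutation p = 0.0794). With the run as a block the same difference passed (adjusted p = 0.00441).

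The run comparison set titles 4 and 5 against titles 1 to 3 within a label. The array labelled induced 1 was left out of it, so it used 9 arrays, with one estimate of the spread. Dppa3 was the only member called, and it was called within both labels. Among the arrays labelled uninduced it rose from 249 ± 18.8 (SD, n = 3) in run 1 to 378 ± 10.9 (SD, n = 2) in run 2, a difference of 0.57 ± 0.09 (limma, adjusted p = 0.00423). Among induced 2 to 5 it rose from 328 ± 9.02 to 685 ± 6.07 (SD, n = 2 each), a difference of 1.03 ± 0.09 (adjusted p = 0.000299). The rise among induced 2 to 5 exceeded the other by 0.46 ± 0.13, which did not pass the test (adjusted p = 0.243).

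In the arrays labelled uninduced, 1 of the 17 probes was higher and 0 lower in run 2, beside 4.64% higher and 4.62% lower among all tested probes. In induced 2 to 5 the same count of 1 higher and 0 lower stood beside 3.14% and 4.34%. For the difference of the run differences 0 member probes were called with limma, beside 0.0133% of all probes (2 probes, with 1766 at an unadjusted p under 0.05). The shares of members are near the background, and 1 gene carries them. On their most intense probes the fallen factors showed small run differences: Klf2 stood at 0.04 and 0.09 within the 2 labels, Klf4 at -0.10 in each and Tbx3 at 0.14 and 0.06. The other Tbx3 probes differed more among the arrays labelled uninduced. ILMN_3139514 stood there at 0.34 (limma, adjusted p = 0.0927) and ILMN_3061990 at 0.54 (adjusted p = 0.104). Among induced 2 to 5 they stood at 0.06 and -0.22, also not called. The next closest to a call were Tcl1 probe ILMN_2638171 among induced 2 to 5 (0.37, adjusted p = 0.05001) and among the arrays labelled uninduced (0.30, adjusted p = 0.0651). Prdm14 stood at 0.39 ± 0.17 (adjusted p = 0.197) and 0.57 ± 0.19 (adjusted p = 0.120). The first value rested on uninduced 4, being 0.09 without that array and 0.68, and called, without uninduced 5 (adjusted p = 0.0491). The second ranged from 0.38 to 0.75 with 1 array left out and was called without uninduced 4 or uninduced 5 (adjusted p = 0.0443 for each), which alter only the shared spread.

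With induced 1 left out, a choice made because its values were known to stand apart from its label, the label difference was also read once in each run. The calls are conditional on that choice, since with induced 1 kept run 1 gave 0 calls. On these 9 arrays the label coincides with the division along the first principal component. Label and division cannot be told apart there. In run 1, 8 of the 17 probes were lower and 2 higher for the label induced, beside 21.1% and 20.0% of all tested probes. In run 2, 9 were lower and 2 higher, beside 20.0% and 18.1%. Klf2 stood at -0.61 in run 1 and -0.56 in run 2 (limma, adjusted p = 0.000949 and 0.00253). Klf4 stood at -0.93 in each (adjusted p = 0.000906 and 0.00161), and Tbx3 at -0.72 and -0.80 (adjusted p = 0.000499 and 0.000623). The nuclear receptors passed in both runs in the fit of these 9 arrays, which shares 1 estimate of the spread. Neither passed in run 1 fitted alone with induced 1 kept (adjusted p = 0.553 for Esrrb and 0.337 for Nr5a2). In run 2 fitted alone Nr5a2 passed (adjusted p = 0.0205) and Esrrb did not (adjusted p = 0.11). In the 9-array fit Esrrb was lower by a difference of -0.22 and -0.27 (adjusted p = 0.0458 and 0.0336). Nr5a2 was lower there by -0.57 and -0.58 (adjusted p = 0.0216 and 0.0306). Dppa3 was higher by 0.38 in run 1 and 0.83 in run 2 (adjusted p = 0.00799 and 0.000507). Klf5, Zfp42, Prdm14 and Tcl1 probe ILMN_2985612 were called in neither run, while Tcl1 probe ILMN_2638171 was higher by 0.31 and 0.38 (adjusted p = 0.0210 and 0.0143).

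**Figure D3:**
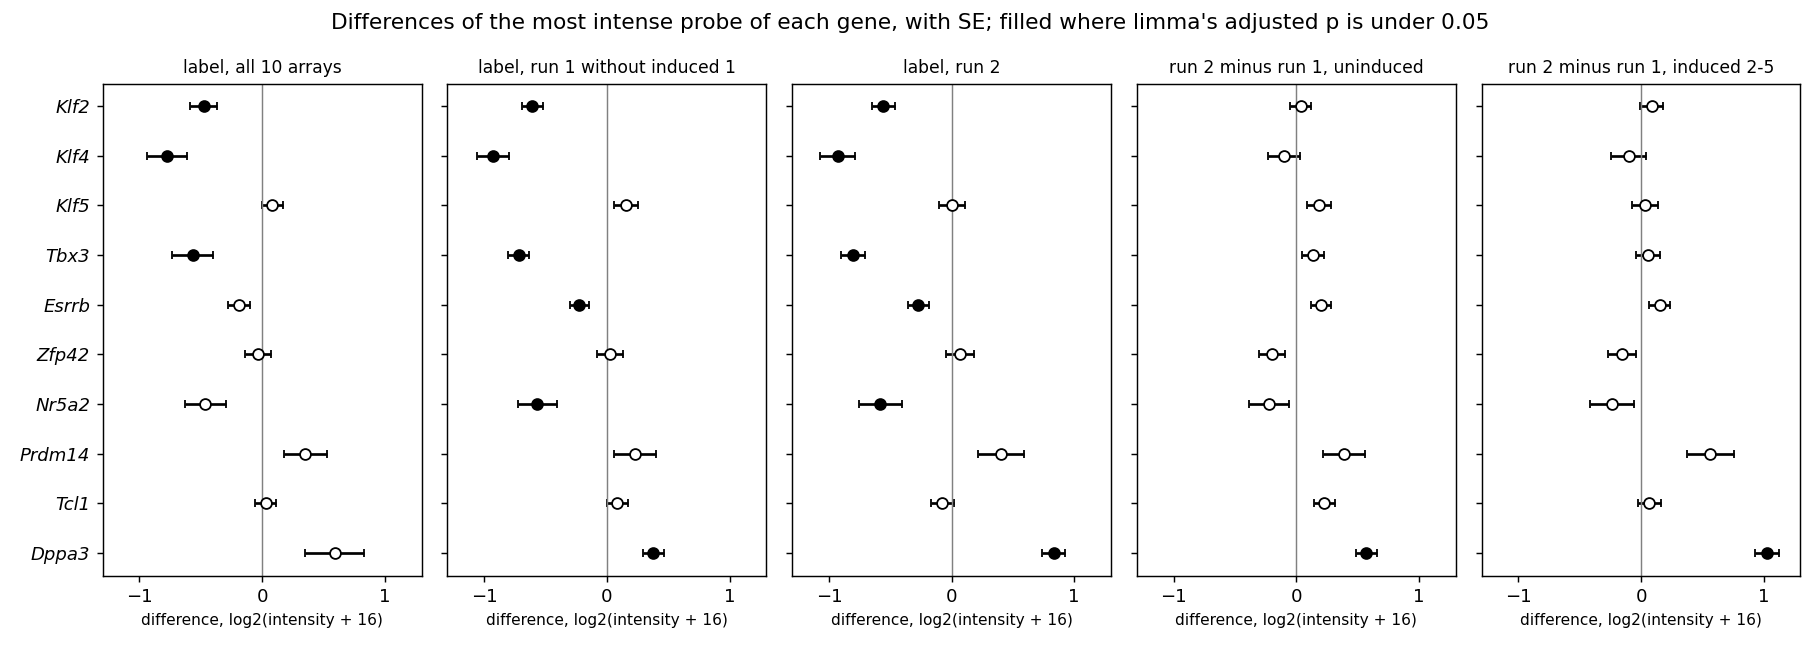
Differences of the most intense probe of each gene on the scale of log2(intensity + 16), with the standard error as bars and filled points where limma's adjusted p is under 0.05. The panels give the label difference over 10 arrays and within each run without induced 1, and the run difference within each label; Dppa3 is the single filled point in both run panels.

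The calls between labels depended on single arrays, for the members as for the whole array. Without uninduced 1, 2 or 3 or without induced 2, 4 or 5, 0 of the 10 genes were called, and 14 to 52 of all 14985 probes. Without induced 3 the count was 1 gene and 639 probes, and without uninduced 4 or 5 it was 2 genes and 1864 or 1947 probes. Without induced 1 it was 5 genes, with 6821 probes called in all. Over these fits Klf2 ranged from -0.58 to -0.43, Klf4 from -0.94 to -0.68 and Tbx3 from -0.75 to -0.49, so each was below 0 in every one of them. Titles 1 to 3 alone, with induced 1 kept in its label, gave 0 called probes of any gene, with Klf2 at -0.42, Klf4 at -0.68 and Tbx3 at -0.41 (limma, adjusted p = 0.236, 0.185 and 0.387).

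Markers of other cell types moved between the arrays, and their part in the members' values was not tested. Over the 14 primitive endoderm genes on the array (15 listed, 13 tested), the summed intensity was 7636 to 7797 on uninduced 1 to 3, 16820 to 18150 on uninduced 4 and 5 and 17870 on induced 1. It was 7141 to 7496 on induced 2 and 3 and 11400 to 11520 on induced 4 and 5. With induced 1 set aside the sum was higher on titles 4 and 5 of each label, as Dppa3 was, but it was highest on uninduced 4 and 5 and induced 1, where Dppa3 was not. The basement membrane genes Lama1, Lamc1, Col4a1 and Col4a2 made up 65.4% to 82.4% of the sum. Without these 4, a choice made after seeing the values, the other 10 still summed higher on uninduced 4 and 5 (3338 to 3737) than on uninduced 1 to 3 (2359 to 2645). Induced 1 gave 3461. The 10 summed to 2177 to 2307 on induced 2 and 3 and to 2032 to 2071 on induced 4 and 5. Sparc was the largest of them, at 1624 and 1747 on induced 2 and 3 and 1443 and 1401.5 on induced 4 and 5. The members of the list therefore went different ways: Gata6, a founding factor of that lineage, read 66.4 and 69.1 on induced 2 and 3 and 171 and 172 on induced 4 and 5, while the factor Sox7 read 72.3 and 76.5 and then 60.2 and 59.2. Hnf4a read 35.2 to 43.3 on induced 2 to 5 and 18.3 to 29.3 on the other 6 arrays, and Foxa2 lay between -5.52 and 11.6.

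**Figure D4:**
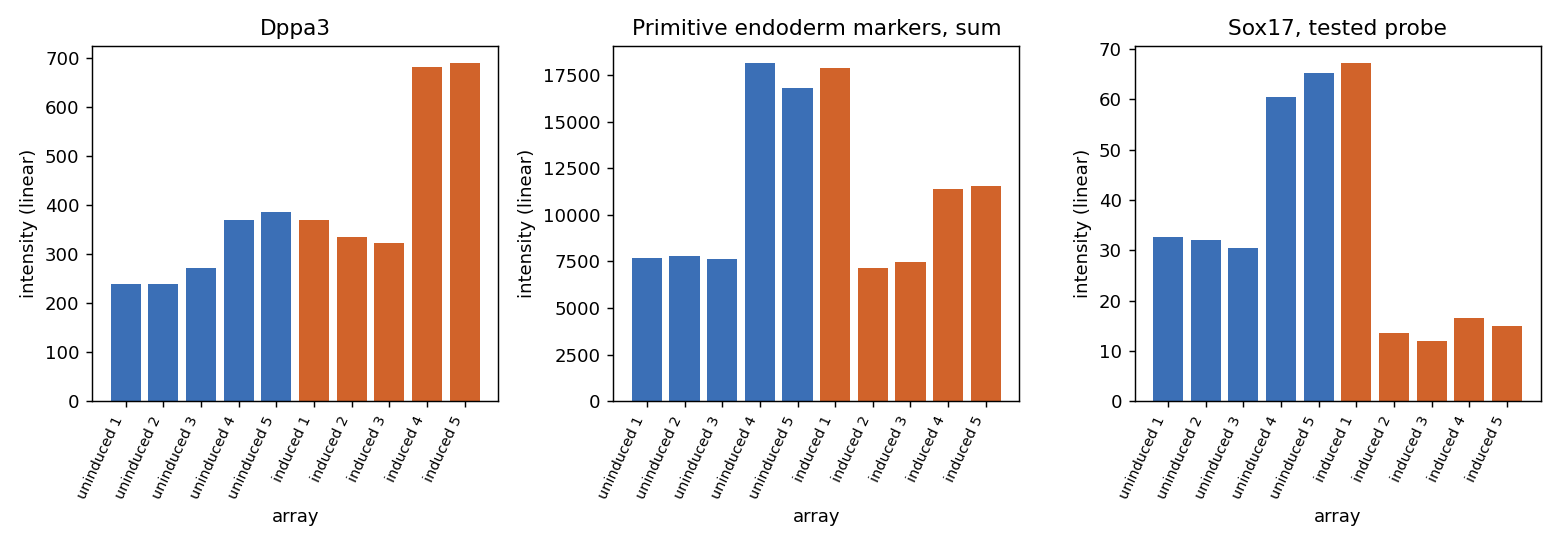
Intensity (linear scale, bars from 0) of Dppa3, of the summed primitive endoderm markers and of the tested Sox17 probe on each of the 10 arrays, blue for the label uninduced and orange for the label induced. Dppa3 peaks on induced 4 and 5, while the marker sum and Sox17 peak on uninduced 4 and 5 and induced 1.

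Summed over 8 of 8 embryonic stem cell genes, the intensity ran from 47370 to 51360 over all 10 arrays, and from 47370 to 47710 on induced 2 and 3. Dppa5a was the largest of them, at 19276 to 23237, and the others went different ways under that sum. On induced 4 and 5 Pou5f1 (9094 and 9471) was higher than on any other array and Sox2 (1162 and 1246) lower. Utf1 read 2850 to 3515 on induced 2 to 5 and 2058 to 2436 on the other arrays, and Tdgf1 ran from 605 to 1668 over all arrays. The 10 trophoblast genes (7 tested, and 3 under the limit on all arrays) summed to 3154 to 3326 on uninduced 1 to 3, 3929 to 4139 on uninduced 4 and 5 and induced 1 to 3, and 4524 to 4710 on induced 4 and 5. Tfap2c, which is also known from germ cells and naive cells, led that sum, and without it the other 9 had another order. They summed to 686.8 to 705.5 on uninduced 1 to 3, 415.1 to 441.1 on uninduced 4 and 5 and induced 1, 1371 to 1425 on induced 2 and 3 and 611.8 to 772.3 on induced 4 and 5. The keratins Krt8 (962 and 922 on induced 2 and 3) and Krt18 (311 and 302) made up most of that sum. Cdx2 and Krt7 were also highest on induced 2 and 3, while Eomes (20.0 to 40.2 over all arrays) and Ascl2 (12.5 to 36.2) were not. The 10 fibroblast genes (4 tested, and 4 under the limit on all arrays) summed to 334.7 to 348.4 on uninduced 1 to 3 and 141.9 to 224 on the other 7, an order set by Thy1. Without Thy1 the other 9 summed to 91.97 to 104.7 on induced 2 to 5 and 57.04 to 72.54 on the other 6 arrays. That order came from Twist1 and Acta2, which were highest on induced 2 to 5. Prrx1, also tested, went the other way, at 5.00 to 6.72 on induced 2 to 5 and 10.9 to 21.3 on the other 6.

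The list for the LIF and Stat3 pathway holds nuclear factors such as Myc and Gbx2 beside the signalling proteins. Of its 19 tested genes, 0 were higher and 1 lower between the labels, with a median of 0.03. Among all 10087 tested genes 857 were higher and 1109 lower, with a median of -0.01. The call was Jak2, a kinase of the LIF receptor complex, at 92.7 ± 18.5 against 50.6 ± 18.2 (SD, n = 5 each), a difference of -0.73 ± 0.17 (limma, adjusted p = 0.0234). Induced 1 read 80.9, inside the range of the arrays labelled uninduced (72.9 to 113.7), and induced 2 to 5 read 36.0 to 53.9. Between runs, 0 were higher and 4 lower among the arrays labelled uninduced: Myc (-0.75), Pim1 (-0.54), Socs3 (-0.38) and Gbx2 (-0.31). All 10087 genes gave 505 higher and 507 lower there. Among induced 2 to 5, 0 were higher and 2 lower, Myc (-0.97) and Gbx2 (-0.49), beside 341 and 504 of all 10087 genes. Klf4, listed above as a Stat3 target, stood at -0.10 in each of these run comparisons and was not called.

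Of 19 other naive-state genes tested, 3 were higher on the arrays of the label induced and 0 lower, with a median of 0.01, beside 857 and 1109 of the 10087 genes. The F-box gene Fbxo15 stood at 0.38 ± 0.11 (limma, adjusted p = 0.0389) and the chromatin factor Utf1 at 0.38 ± 0.11 (adjusted p = 0.0404). Ncoa3, a coactivator of Esrrb, was on average at least 3.91-fold higher, with 2 of 5 arrays labelled uninduced under the background limit. For each of these called genes induced 1 lay inside the range of the arrays labelled uninduced. Ncoa3 read 14.8 on induced 1, beside 5.46 to 19.8 on the arrays labelled uninduced and 68.9 to 80.6 on induced 2 to 5. Fbxo15 read 2782 on induced 1 (label uninduced 2105 to 2885.5) and Utf1 2322 (label uninduced 2058 to 2436). Between runs, 2 were higher and 4 lower among the arrays labelled uninduced, beside 505 and 507 of all 10087 genes. Among induced 2 to 5 the counts were 0 and 5, beside 341 and 504. The Nodal inhibitors Lefty2 (-0.89 and -1.04) and Lefty1 (-0.51 and -0.79) and the growth factor Fgf4 (-0.60 and -0.75) were lower in run 2 within both labels, where Dppa3 was higher. Pecam1, as Dppa3, was higher in run 2 among the arrays labelled uninduced (0.46, limma, adjusted p = 0.0083). Tcea3 was lower in run 2 among induced 2 to 5 (-0.59, adjusted p = 0.00462).

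Of 14 primed-state genes tested, 1 was higher and 2 were lower for the label induced, with a median of -0.11. All 10087 tested genes gave 857 higher and 1109 lower. Otx2, a factor of the epiblast after implantation, stood at 0.84 ± 0.23 (limma, adjusted p = 0.0337). It read 360 to 366 on uninduced 1 to 3, 793 and 722 on uninduced 4 and 5 and 757 to 1104.5 on the arrays labelled induced. The labels thus overlapped, with uninduced 1 to 3 apart. Fzd2 stood at -0.46 ± 0.14, and Fst was on average at least 2.11-fold lower. For Fzd2, induced 1 and induced 3 (72.2 and 73.6) lay inside the range of the arrays labelled uninduced. For Fst the arrays labelled induced all lay below those labelled uninduced, with induced 1 the highest of them at 13.1. Between runs, 3 were higher and 4 lower among the arrays labelled uninduced, beside 505 and 507 of all 10087 genes. Among induced 2 to 5 the counts were 3 and 6, beside 341 and 504. Otx2 was higher in run 2 of the label uninduced (1.03, adjusted p = 0.00101), and Sall2 was higher in run 2 among induced 2 to 5 (0.76, adjusted p = 0.00519). Pou3f1 (Oct6), a primed marker, was lower in run 2 by -0.77 and -1.11. Zic2, under the background limit on 1 of 2 and 2 of 2 arrays of run 2, was at least 5.39-fold and 3.98-fold lower. Lef1, under that limit on 2 of 2 arrays of run 2 within each label, was at least 2.7-fold and 2-fold lower. Of 11 genes that repress the naive network or drive exit from it, 0 were called between the labels (median -0.05) or between runs of the label uninduced. Etv5 was the single call among induced 2 to 5 (0.41, adjusted p = 0.0315). For the difference of the run differences, 0 genes of these 4 lists were called by limma. The lists share Gbx2, Tfcp2l1, Sall4 and Etv5 in pairs.

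For each called gene the 2 genes nearest in pattern were found among 10077 genes that are no member, by the root mean square difference of centred log2 values over the 10 arrays. For Klf2, whose own SD over arrays was 0.30, they were Ypel3 and Ift81, each at 0.06. For Klf4 (SD 0.49) they were Mthfd2, a mitochondrial folate enzyme, at 0.09 and Carmil2 at 0.11, the latter at 4.41 or less on induced 2 to 5. Tbx3 (SD 0.41) was nearest to Furin, a protease that processes proproteins, at 0.05 and to Kdm6a, a histone H3 demethylase, at 0.07. For Dppa3 (SD 0.52) the nearest were Mreg at 0.15 and Krt42 at 0.16, so Dppa3 had less close neighbours than the other 3. Krt42 read 412 to 459 on uninduced 1 to 3, 543 to 699 on the 5 arrays in between and 1216 and 1219 on induced 4 and 5. The arrays are shared by all genes, and the distance is a description with no test.

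**Figure D5:**
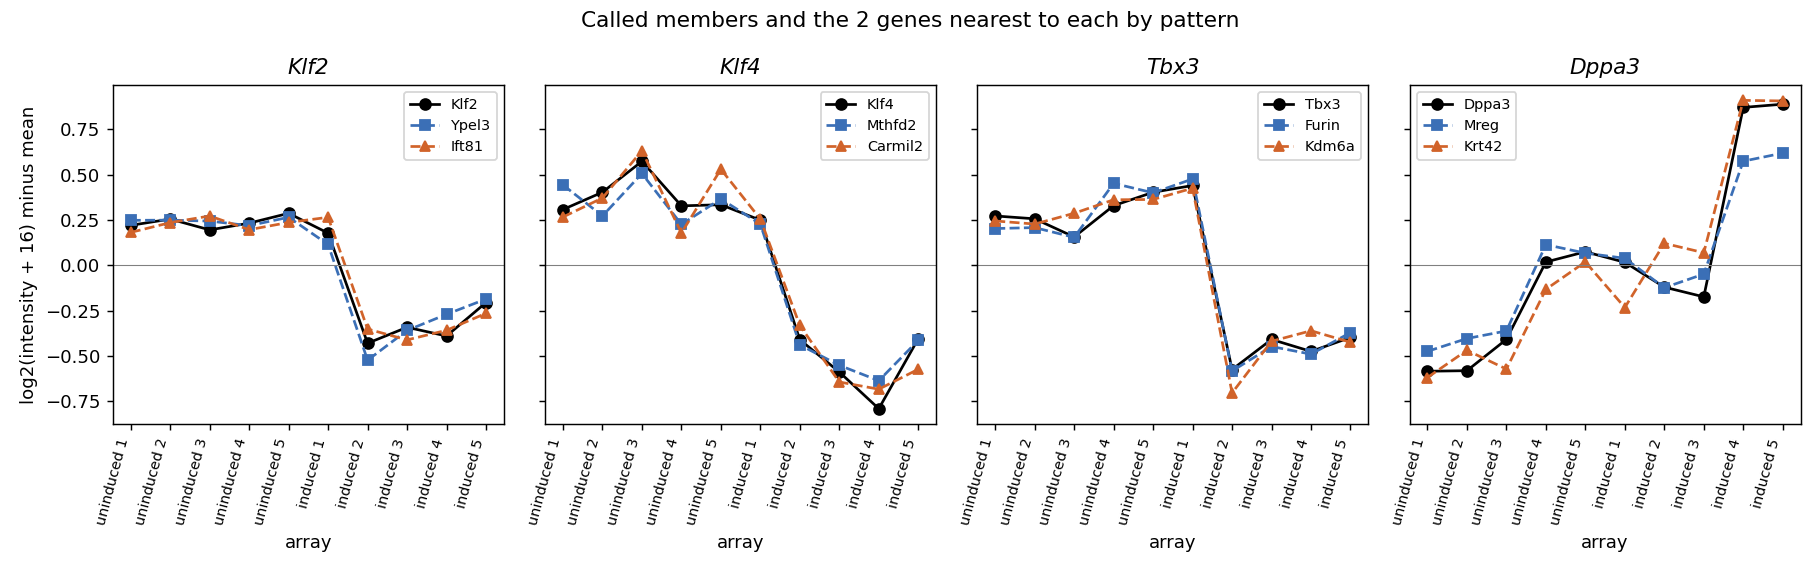
log2(intensity + 16) minus its mean over the 10 arrays for the 4 called genes (black circles) and the 2 genes nearest to each in pattern (blue squares and orange triangles), by array. In the Klf2, Klf4 and Tbx3 panels the 3 lines drop from induced 1 to induced 2, and in the Dppa3 panel they are highest on induced 4 and 5.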

How the data were processed

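Biotin-labelled cRNA was made from Trizol-extracted, column-cleaned total RNA, per the labels' protocols. The authors deposited linear intensity values, 1 for each probe on each array. Of these deposited intensity values 25.5% lie below 0, so background had been subtracted. All 10 arrays share a 75th percentile of 250.01, with medians of 21.68 to 22.04, so they had been set to nearly the same distribution. Single values recur between arrays, as quantile normalization leaves them, such as 22168 for Dppa5a on uninduced 1, uninduced 2 and induced 1. Quantile normalization on top called 2896 probes in the label difference, in place of 2919. Software and normalization were not given in the sources used here. A second deposited table has 20 value columns whose names match no label, and they were not used.

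Of 25697 probes, 23978 carry 1 gene symbol (23962 matched through the Entrez identifier) and 1719 none. Values below 0 were set to 0, 16 was added and log2 taken. Values below 0, mirrored, gave a background SD of 6.45, a limit of 10.6 and a stricter limit of 15.0. Probes above the limit on at least 5 of 10 arrays were tested by the two-sided moderated test of limma 3.58.1 (lmFit, eBayes) in R 4.3.3, with Benjamini-Hochberg adjustment and a threshold of 0.05. "At least" folds raise values to the limit. Single members were also tested by exact permutation of arrays. The scripts were tested on simulated data. For arrays, their number limits the precision.

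The text names every member and probe, Sox17 and the 2 nearest genes of each called member. It also names up to 4 called genes of each list in each comparison, by size of difference. Other marker genes were picked after their values were seen. Members, lists and tests were chosen with earlier results of these data known. Alternatives changed the constant, filter, normalization, moderation, array weights, blocks, runs and arrays included. Python 3.11.15 and matplotlib 3.10.9 made the plots.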

Additional observations from a re-analysis of the deposited data

Results flagged for a closer look

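Within each label, the highest and the lowest array of each of the 17 member probes and 2 Sox17 probes were set against the others by Dixon's test, 38 groups of 5 arrays in all, of which 4 were singled out. Chance alone singles out about 5% of groups. For Tbx3 probe ILMN_1247220 the array labelled induced 1 read 1246, and the other 4 arrays labelled induced 608.6 to 690.3. For Prdm14 the array labelled uninduced 4 read 77.6, and the other 4 of its label 39.89 to 46.04. Both Sox17 probes had induced 1 apart: ILMN_2747986 read 67.3 there against 11.99 to 16.65, and ILMN_2784446, too dim to be tested, read 42.9 against -2.298 to 4.738. In the fit with array weights induced 1 had a weight of 0.169.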

How the results depend on the processing

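Over all tested probes the label difference called 2919 with the settings above. It called 1672 with 1 added in place of 16, 549 without the filter on dim probes, 7313 with array weights, 0 with the first-component division as a block, 0 in run 1 alone, 4400 in run 2 alone, and 6161 in run 1 without induced 1 and 5713 in run 2 from the fit of 9 arrays. Under that block the label rests on induced 1 alone, which the division, drawn from the same values, places with the label uninduced, so its result bears on nothing else. With each array left out in turn it called 14 to 6821. Of the 10 member genes, called 3 at first, 0 were called without the filter, with the division as a block or in run 1 alone, 5 in run 2 alone, and 6 with array weights or in each run of the 9-array fit. The count was 0 to 5 with 1 array left out.

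The title number as a replicate block gave 3344 probes and 5 member genes, and the run as a block 3984 and 5. Both added Nr5a2 (adjusted p = 0.0312 and 0.0369) and Dppa3 (0.0141 and 0.00441) to Klf2, Klf4 and Tbx3. Both blocks set induced 1 with titles of run 1, although its Dppa3 value lay beside uninduced 4 and 5. Correlations of deviations between arrays of one title number were 0.293 to 0.314 for 4 of 5 numbers and -0.0605 for number 1, which holds induced 1. As not every pair correlated and no label ties the numbers together, they were not taken to pair the samples. The description number as a replicate block gave 795 in place of 1387 probes for the run difference in the label uninduced, 564 in place of 1121 in induced 2 to 5, and 0 in place of 2 for the difference between them.

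The run difference in the label uninduced further called 2205 with 64 added, 2175 with trended robust moderation, 148 with all 10 arrays and 660 to 1379 with 1 array left out. In induced 2 to 5 it called 191 with all 10 arrays and 573 to 1030 with 1 left out. Member genes called, 1 in each, became 2 with trended robust moderation in each, 2 with 64 added in induced 2 to 5, and 1 to 2 with 1 array left out. The difference of the run differences called 15 with 1 added, 83 with 64, 36 without the filter, 9 with the stricter limit, 117 with trended robust moderation, 0 with all 10 arrays and 0 to 2 with 1 left out.

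Signs turned for label differences of Tbx3 (0.16) and Nr5a2 (0.062) with the division as a block, of Zfp42 in run 2 (0.0661, alone or in 9 arrays) and in run 1 without induced 1 (0.0258), and of Tcl1 in run 2 (-0.0765, alone or in 9 arrays). Among run differences of induced 2 to 5 they turned for Klf5 with the description block (-0.00264) and for Klf2 (-0.0995) and Tbx3 (-0.255) with all 10 arrays. With 1 array left out, label differences ranged from -0.101 to 0.0263 for Zfp42 and from -0.0174 to 0.0814 for Tcl1. Run differences of induced 2 to 5 then ranged from -0.00409 to 0.181 for Klf2, -0.291 to 0.0944 for Klf4, -0.0724 to 0.132 for Klf5, -0.534 to 0.0617 for Nr5a2 and -0.0275 to 0.139 for Tbx3. The Dppa3 run differences stayed called under all alternatives tried, at 0.497 to 0.629 and 0.934 to 1.08. The causes were not tested.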

Other observations

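Markers of the two-cell-like state, 5 of 7 on the array, were all too dim to be tested. Zscan4c, which marks that state in embryonic stem cell cultures, read 17.4 and 18.5 on induced 2 and 3 and 8.35 and 10.57 on induced 4 and 5. On the other 6 arrays it read -4.46 to 3.34. Only induced 2 and 3 were above the background limit of 10.61. Tcstv1 of the same list read 12.2 on induced 2 and 7.18 or less on the other 9 arrays. The values are given as read, with no test.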
